A study of Mus musculus with 10 samples.

Results

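The cell cycle and mitosis genes described here are 38 genes of DNA replication, cyclin-dependent kinase activity and chromosome segregation, chosen by symbol from the 55414 genes counted in each library. They were grouped by what they do, and all 38 were matched to a gene identifier. The data are bulk RNA-sequencing counts from dorsal root ganglia (DRG) of mouse embryos at E18.5, with 5 control and 5 *WD1* cKO libraries. *WD1* cKO embryos were *Wnt1* Cre/+; *Dach1* flox/flox, so that Cre under *Wnt1* regulatory sequence deleted *Dach1* in neural crest cells, from which both the sensory neurons and the glia of the ganglion descend. Control embryos were littermates in which Cre was not expressed, and the floxed *Dach1* line was kept on a mixed C57Bl/6J and CD1 background. Titles and genotype labels name opposite groups, and the titles were followed. The labels give each library as a separate replicate without naming its litter, and p-values measure the spread between these libraries only.

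Control libraries held between 20465132 and 27528784 counts, and *WD1* cKO libraries between 19757596 and 34796562. Levels are given as counts scaled to library size (CPM), after TMM normalization, and per kilobase of exon where genes are compared with each other. *Dach1*, the deleted gene, was first checked in every library. Its level was 35.1, 38.5, 41.6, 37.1 and 37.4 CPM in control replicates 1 to 5, and 19.1, 20.8, 19.5, 20.3 and 20.4 CPM in *WD1* cKO replicates 1 to 5. The *WD1* cKO values all lay below the control values, as the titles have it, with a log2 fold change of -0.92 ± 0.05 (SE; edgeR quasi-likelihood test, adjusted p = 5.48e-06).

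Sensory neurons leave the cell cycle early in gangliogenesis and do not divide again, whereas Schwann cells, satellite glia, endothelial cells and fibroblasts of the ganglion and its sheath still proliferate late in gestation. In a dividing cell the MCM helicase is first loaded onto origins, E2F factors and cyclin E then start DNA synthesis, and cyclin A and cyclin B with Cdk1 bring the cell into mitosis, where the spindle checkpoint holds separation of the chromatids until all kinetochores are attached. RNA of the mitotic genes rises late in the cycle and falls after division, so that its level in a tissue depends on how many cells cycle.

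Transcripts of all 38 genes were present in every library and all 38 passed the filter of at least 10 counts in at least 5 libraries. Together they took from 0.0712% of the counts, in control replicate 4, to 0.0914%, in *WD1* cKO replicate 2. The lowest count of any of them in any library was 66, for *Cdc6*, which loads the MCM helicase onto origins. Per length, their median level was 3.97 CPM per kilobase, beside a median of 4.49 over the 17447 genes tested with an exon length. On the same scale the markers of sensory neurons had a median of 72.3, those of Schwann cells and satellite glia 28.2, those of connective tissue 52.2 and those of endothelial and mural cells 8.41 CPM per kilobase. Erythroid markers had a median of 71.2 CPM per kilobase. Macrophage markers, at 3.775, and skeletal muscle markers, at 2.019 CPM per kilobase, lay below the 38 genes. The most abundant of the 38 per length were *Mcm6* (11.1), *Mcm4* (10.2), *Mki67* (9.46), *Pcna* (9.43) and *Top2a* (9.40 CPM per kilobase), and the least abundant was *Cdc6* (0.709 CPM per kilobase).

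Between the genotypes, the question was whether this residual proliferation differed in ganglia without *Dach1* in the neural crest. None of the 38 genes had an adjusted p under 0.05 in the edgeR quasi-likelihood test, a call made for 7 genes, or 0.04%, of the 17490 tested. In simulated counts this test called 2 of 50 genes changed by a log2 of 0.15 and 14 of 50 changed by 0.3. Differences of these sizes could thus go uncalled. At the same time, 32 of the 38 had a log2 fold change above 0, as did 50.1% of all genes tested, and 22 of the 38 did without control replicate 4. Of the 38, 14 changed sign when some library was left out, each with a log2 fold change of at most 0.06 in size, so that no direction is given for these genes singly. Their median log2 fold change was 0.09, and that of all genes tested was 0.00. Apart from *Pttg1*, the log2 fold changes ran from -0.06 in *E2f1* to 0.23 in *Bub1*. Without adjustment, 5 genes had a p under 0.05, all with the higher mean in *WD1* cKO embryos: *Ccne1*, *Bub1*, *Pttg1*, *Cenpa* and *Cenpe*. Over all genes tested, 4.5% had an unadjusted p under 0.05, and 2.12% had one with the higher mean in *WD1* cKO embryos. This count of 5 fell to 3 without *WD1* cKO replicate 5 and was 14 without *WD1* cKO replicate 1. In bulk tissue, fewer cells of a type and less RNA per cell cannot be told apart.

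**Figure D1:**
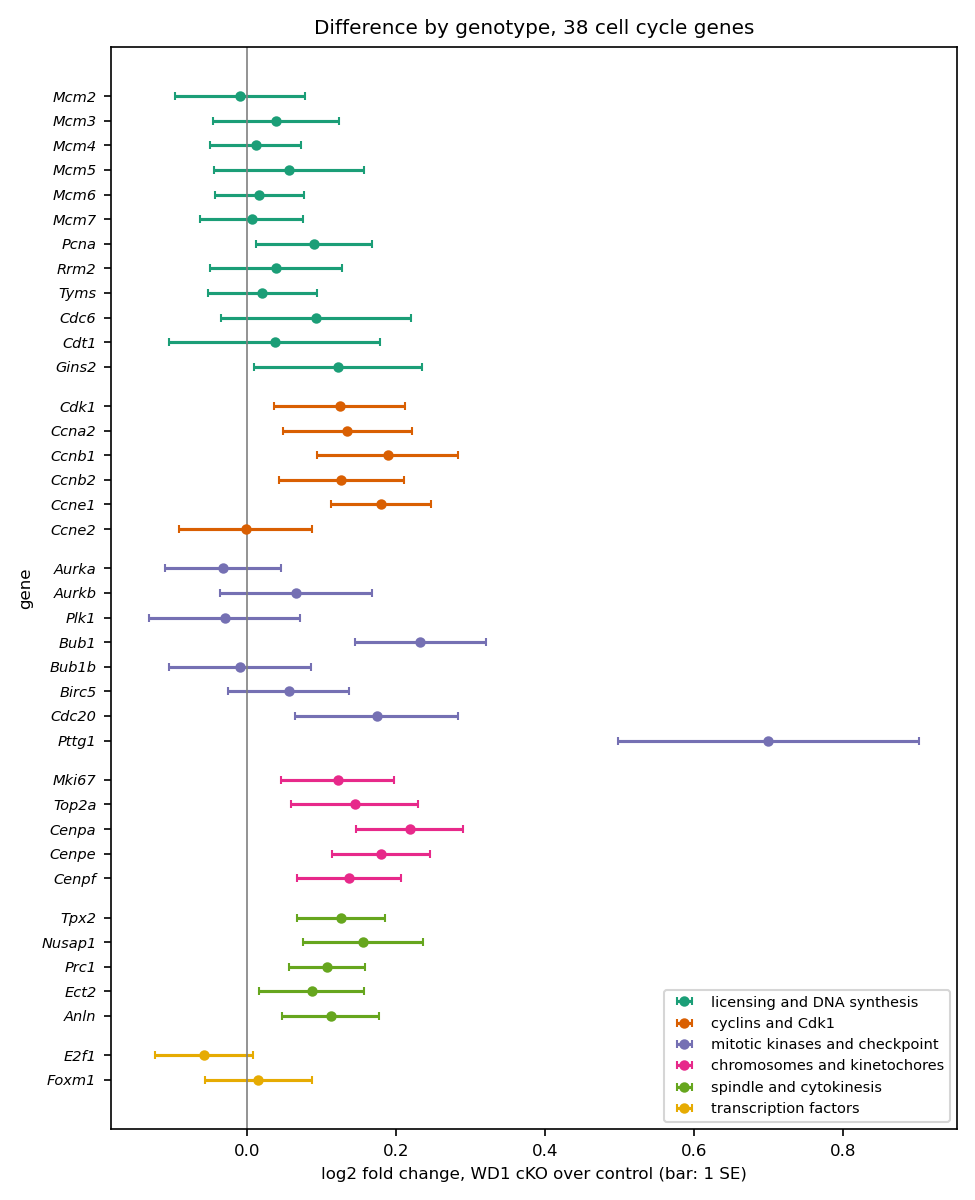
Log2 fold change of WD1 cKO over control for each of the 38 genes (horizontal axis), grouped by role, with bars of 1 SE from the edgeR fit over 5 libraries a group. Genes of licensing and DNA synthesis lie between -0.01 and 0.12, most of the mitotic genes lie between 0.06 and 0.23, so that the ranges overlap, and Pttg1 stands apart at 0.70.

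The genes of licensing and DNA synthesis differed little. This group holds the helicase subunits *Mcm2* to *Mcm7*, the loading factors *Cdc6* and *Cdt1*, the helicase cofactor *Gins2*, the polymerase clamp *Pcna*, and *Rrm2* and *Tyms*, which make deoxynucleotides. Their log2 fold changes ran from -0.01 in *Mcm2* to 0.12 in *Gins2* (0.07 to 0.18 with a library left out), with a median of 0.04, and none of the 12 had an unadjusted p under 0.05. *Mcm6* was at 57.4, 49.6, 53.0, 49.1 and 48.4 CPM in control replicates 1 to 5 and at 55.6, 53.0, 53.9, 51.9 and 46.0 CPM in *WD1* cKO replicates 1 to 5. The groups overlapped throughout, and the highest value was in control replicate 1 (log2 fold change 0.02 ± 0.06, SE). *Pcna* stood at 22.0 ± 2.13 CPM in control and 23.3 ± 2.05 CPM in *WD1* cKO embryos (SD, n = 5 each). For *Mcm2*, the corresponding levels were 24.8 ± 3.24 and 24.6 ± 2.08 CPM. *Cdt1* varied most of these among the control libraries relative to its mean, at 5.80 ± 1.19 CPM, with its highest value in control replicate 3.

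The levels of the transcription factors of the cycle, E2f1 at the entry into S phase and Foxm1 in G2, also overlapped between the groups. *E2f1* was at 14.5, 12.6, 16.2, 15.2 and 14.2 CPM in control replicates 1 to 5 and at 13.5, 14.1, 14.3, 13.8 and 14.1 CPM in *WD1* cKO replicates 1 to 5. All *WD1* cKO values lay within the range of the controls, and the log2 fold change was -0.06 ± 0.07 (SE). *Foxm1* stood at 22.2 ± 1.49 CPM in control and 22.4 ± 2.17 CPM in *WD1* cKO embryos (SD, n = 5 each).

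Among the cyclins and Cdk1, the lowest log2 fold change was that of *Ccne2*, an E-type cyclin, at 0.00 ± 0.09 (SE). *Ccne1*, the other E-type cyclin, which drives entry into S phase with Cdk2, was at 9.80, 8.69, 9.23, 9.42 and 9.99 CPM in control replicates 1 to 5 and at 9.82, 10.6, 10.5, 10.6 and 11.8 CPM in *WD1* cKO replicates 1 to 5. Replicates 2 to 5 of *WD1* cKO embryos were above all controls, and replicate 1 was within the control range (log2 fold change 0.18 ± 0.07, SE; unadjusted p = 0.0198). *Ccnb2*, a B-type cyclin of mitosis and the most abundant of the group per length at 7.98 CPM per kilobase, was at 13.5, 10.4, 12.5, 10.2 and 12.0 CPM in control replicates 1 to 5 and at 11.8, 14.0, 12.6, 12.6 and 12.8 CPM in *WD1* cKO replicates 1 to 5. Controls 2 and 4 were low and the groups overlapped (0.13 ± 0.08, SE). The log2 fold changes of *Cdk1*, the kinase of mitotic entry, *Ccna2*, its A-type partner, and *Ccnb1*, the main mitotic cyclin, were 0.12, 0.13 and 0.19, each with an unadjusted p above 0.05. With a library left out, they ranged from 0.09 to 0.20, 0.10 to 0.20 and 0.14 to 0.24. Without *WD1* cKO replicate 1 their unadjusted edgeR p-values were 0.0109, 0.0177 and 0.0242. With any other library left out, those of *Cdk1* and *Ccna2* stayed above 0.05. That of *Ccnb1* was otherwise under 0.05 only without control replicate 5. The log2 fold changes of *Ccnb2* and *Ccne1* ranged from 0.08 to 0.18 and from 0.14 to 0.21 with a library left out.

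The log2 fold changes of the 8 mitotic kinases, checkpoint and separation genes ran from -0.03 in *Aurka* to 0.70 in *Pttg1*. The kinases of centrosome maturation and spindle assembly, *Aurka* and *Plk1*, were at -0.03 and -0.03, and *Bub1b*, which encodes the checkpoint protein BubR1, was at -0.01. *Aurkb* and *Birc5*, partners in the chromosomal passenger complex, were at 0.07 and 0.06, and *Cdc20*, the activator of the anaphase-promoting complex, was at 0.17. *Bub1*, the checkpoint kinase at the kinetochore, was at 10.6, 11.1, 12.6, 9.27 and 11.5 CPM in control replicates 1 to 5 and at 11.1, 13.4, 12.8, 13.5 and 13.8 CPM in *WD1* cKO replicates 1 to 5. As for *Ccne1*, replicates 2 to 5 of *WD1* cKO embryos were above all controls and replicate 1 was among them (log2 fold change 0.23 ± 0.09, SE; unadjusted p = 0.0209).

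*Pttg1* encodes securin, which holds separase inactive until anaphase, and had the largest difference of the 38 genes. It was at 8.34, 7.14, 18.2, 13.5 and 14.0 CPM in control replicates 1 to 5 and at 18.4, 18.4, 20.9, 19.2 and 22.4 CPM in *WD1* cKO replicates 1 to 5. Controls 1 and 2 were low, control 3 nearly reached the lowest *WD1* cKO library, and the groups did not overlap. Such separation, with the lowest *WD1* cKO value above the highest control value, was found for 1 of the 38 genes and for 0.492% of all genes tested. The log2 fold change was 0.70 ± 0.20 (SE; unadjusted p = 0.00450, edgeR adjusted p = 1.00), and it lay between 0.56 and 0.88 whichever library was left out. *Pttg1* did not follow most of the 38 genes between libraries: after centring on group means, its log2 CPM had a Pearson correlation of 0.09 with the mean of the other 37 over the 10 libraries, beside a median of 0.74 for the 38 genes. *Pttg1* lies on chromosome 11, as do *Aurkb*, *Birc5*, *Cdc6* and *Top2a*, whose log2 fold changes were between 0.06 and 0.14. On the same chromosome lies *H2afv*, 1 of the 7 genes with an adjusted p under 0.05, with a log2 fold change of -0.96 ± 0.07 (SE; edgeR adjusted p = 7.45e-05). Any sequence near a gene that the embryos of the groups do not share cannot be told apart from the genotype here.

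The log2 fold changes of the 5 genes of chromosomes and kinetochores ran from 0.12 in *Mki67* to 0.22 in *Cenpa*, and with a library left out these ranged from 0.07 to 0.16 and from 0.17 to 0.26. *Mki67*, which encodes the proliferation antigen Ki-67 that coats mitotic chromosomes, was at 95.0, 95.7, 91.6, 77.0 and 96.6 CPM in control replicates 1 to 5 and at 87.6, 112.3, 100, 104.6 and 91.3 CPM in *WD1* cKO replicates 1 to 5. Control 4 was low, *WD1* cKO replicates 1 and 5 were within the control range and the remaining 3 were above it (log2 fold change 0.12 ± 0.08, SE; unadjusted p = 0.133). *Top2a*, the topoisomerase that untangles chromatids, was at 80.5 ± 7.37 CPM in control and 88.9 ± 10.8 CPM in *WD1* cKO embryos (SD, n = 5 each). *Cenpa*, the histone variant that marks centromeres, was at 20.6, 20.4, 20.2, 16.9 and 17.95 CPM in control replicates 1 to 5 and at 19.9, 23.1, 23.98, 23.4 and 21.2 CPM in *WD1* cKO replicates 1 to 5. Only *WD1* cKO replicate 1 fell within the control range (0.22 ± 0.07, SE; unadjusted p = 0.0101). *Cenpe*, the kinetochore motor that brings chromosomes to the spindle equator, was at 21.6, 20.02, 19.3, 19.1 and 20.7 CPM in control replicates 1 to 5 and at 20.9, 24.3, 24.01, 24.6 and 20.3 CPM in *WD1* cKO replicates 1 to 5. *WD1* cKO replicates 2, 3 and 4 were above all controls and replicates 1 and 5 were not (0.18 ± 0.07, SE; unadjusted p = 0.0184). *Cenpf*, another kinetochore protein, differed by 0.14 ± 0.07 (SE) with an unadjusted p of 0.0738.

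The 5 genes of spindle and cytokinesis, *Tpx2*, *Nusap1*, *Prc1*, *Ect2* and *Anln*, had log2 fold changes from 0.09 in *Ect2*, the exchange factor that activates RhoA at the furrow, to 0.16 in *Nusap1*, which bundles spindle microtubules. *Tpx2*, the activator of Aurora A and the most abundant of them per length at 6.04 CPM per kilobase, was at 29.4, 26.9, 27.5, 24.6 and 26.6 CPM in control replicates 1 to 5 and at 26.4, 31.0, 29.6, 31.4 and 28.9 CPM in *WD1* cKO replicates 1 to 5. *WD1* cKO replicate 1 was below every control but control 4, and replicate 5 was below control 1 (0.13 ± 0.06, SE; unadjusted p = 0.0526). *Prc1*, which crosslinks the central spindle, and *Anln*, the anillin of the contractile ring, differed by 0.11 ± 0.05 and 0.11 ± 0.07 (SE).

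**Figure D2:**
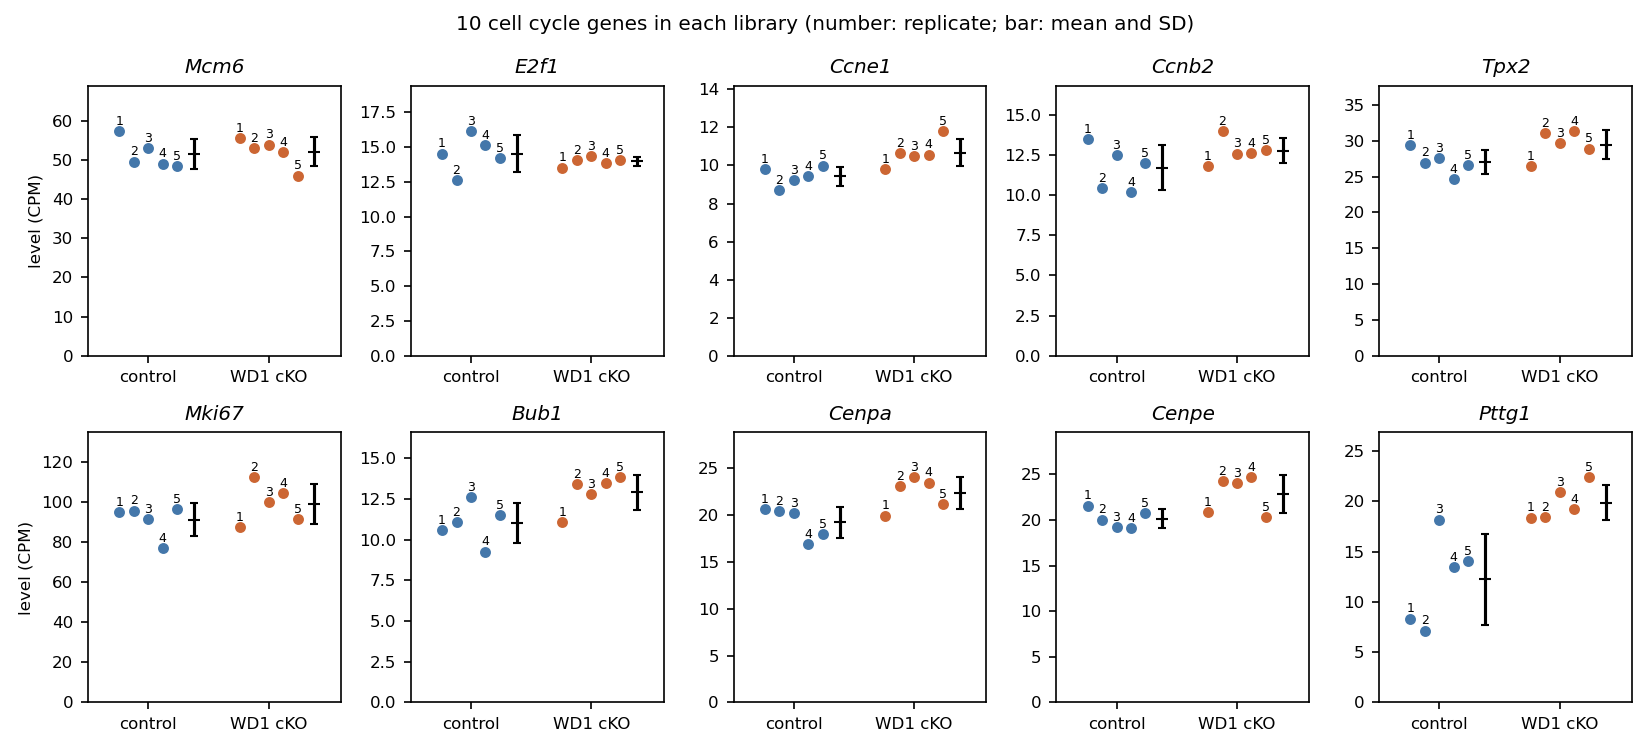
Level (CPM, vertical axes from 0) of 10 cell cycle genes in each control and WD1 cKO library, with replicate numbers beside the points and bars for mean and SD (n = 5 a group). The groups overlap in each panel except Pttg1, in which controls 1 and 2 are lowest; WD1 cKO replicate 1 lies among the controls for Ccne1, Bub1, Cenpa and Cenpe.

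To see the replication and the mitotic genes apart, their levels were summed in each library. The sum over the 15 S-phase genes (licensing and DNA synthesis, *Ccne1*, *Ccne2* and *E2f1*) was 279.0, 256.0, 294.4, 242.0 and 263.4 CPM in control replicates 1 to 5, and 258.6, 286.3, 287.7, 263.5 and 265.0 CPM in *WD1* cKO replicates 1 to 5. All *WD1* cKO sums lay within the control range, and the means were 267.0 ± 20.3 and 272.2 ± 13.7 CPM (SD, n = 5 each). The sum over the 23 other genes, those of G2 and mitosis, was 554.9, 528.7, 552.6, 479.1 and 556.7 CPM in control replicates 1 to 5, and 510.6, 629.4, 603.5, 620.5 and 572.9 CPM in *WD1* cKO replicates 1 to 5. *WD1* cKO replicates 2 to 5 were above all controls, while replicate 1 was below all controls but control 4, and the means were 534.4 ± 32.9 and 587.4 ± 48.0 CPM (SD, n = 5 each). The mitotic sum was thus 1.10 times the control mean, and the S-phase sum 1.02 times. In the mitotic sum, *Mki67*, *Top2a* and *Pttg1* had means of 91.2, 80.5 and 12.2 CPM in control embryos. Their means in *WD1* cKO embryos were 99.2, 88.95 and 19.9 CPM, and no sum without these genes is given. The median log2 fold change was 0.13 over the 23 genes of G2 and mitosis, of which 20 were above 0, and 0.04 over the 15 S-phase genes, of which 12 were above 0. Without control replicate 4, 4 of the 15 S-phase genes and 18 of the 23 others remained above 0, the medians were -0.01 and 0.09, and the sums were 0.996 and 1.07 times the control mean. Without control replicate 3 the S-phase median was 0.09. The sums were not tested.

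**Figure D3:**
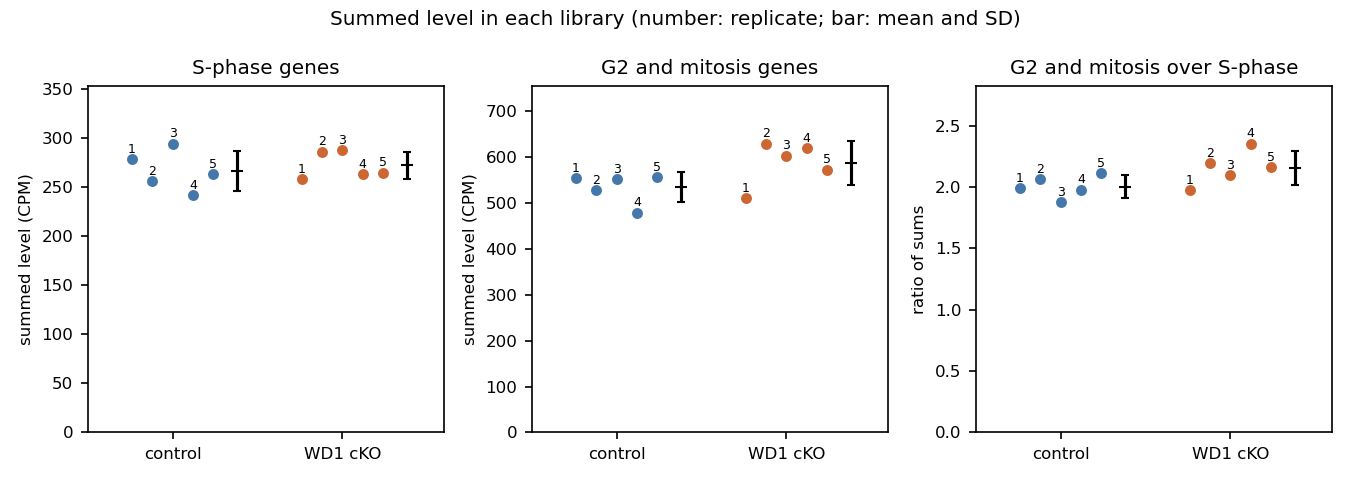
Summed CPM of the 15 S-phase genes (left) and of the 23 genes of G2 and mitosis (centre), and the ratio of the sums (right), in each library, with replicate numbers and bars for mean and SD (n = 5 a group). The S-phase sums overlap fully, and the mitotic sums of WD1 cKO replicates 2 to 5 lie above all controls.

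Within each group the genes rose and fell together from library to library. Control replicate 4 held the lowest control value for 26 of the 38 genes, and *WD1* cKO replicate 1 the lowest *WD1* cKO value for 30. After centring on group means, the median Pearson correlation between pairs of genes over the 10 libraries was 0.61 within the genes of G2 and mitosis, 0.45 within the S-phase genes and 0.40 between them. *Rrm2* (0.96), *Nusap1* (0.95) and *Plk1* (0.93) followed the mean of the other genes most closely, and *Bub1b* (-0.23) and *Pttg1* did so least. These correlations describe libraries that share their scaling and dissection, and carry no test. Replicates 1 to 3 and replicates 4 and 5 also differed in blood content, as given with the markers. Within replicates 1 to 3, 17 of the 23 genes of G2 and mitosis were higher in *WD1* cKO embryos (median log2 difference 0.08). Within replicates 4 and 5, 21 of 23 were (0.20). Of the 15 S-phase genes, 8 and 12 were higher, with medians of 0.00 and 0.09. The values of replicates 4 and 5 rest in part on control replicate 4. Since the genes varied together, these counts are not independent observations. The part of blood content was not tested.

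**Figure D4:**
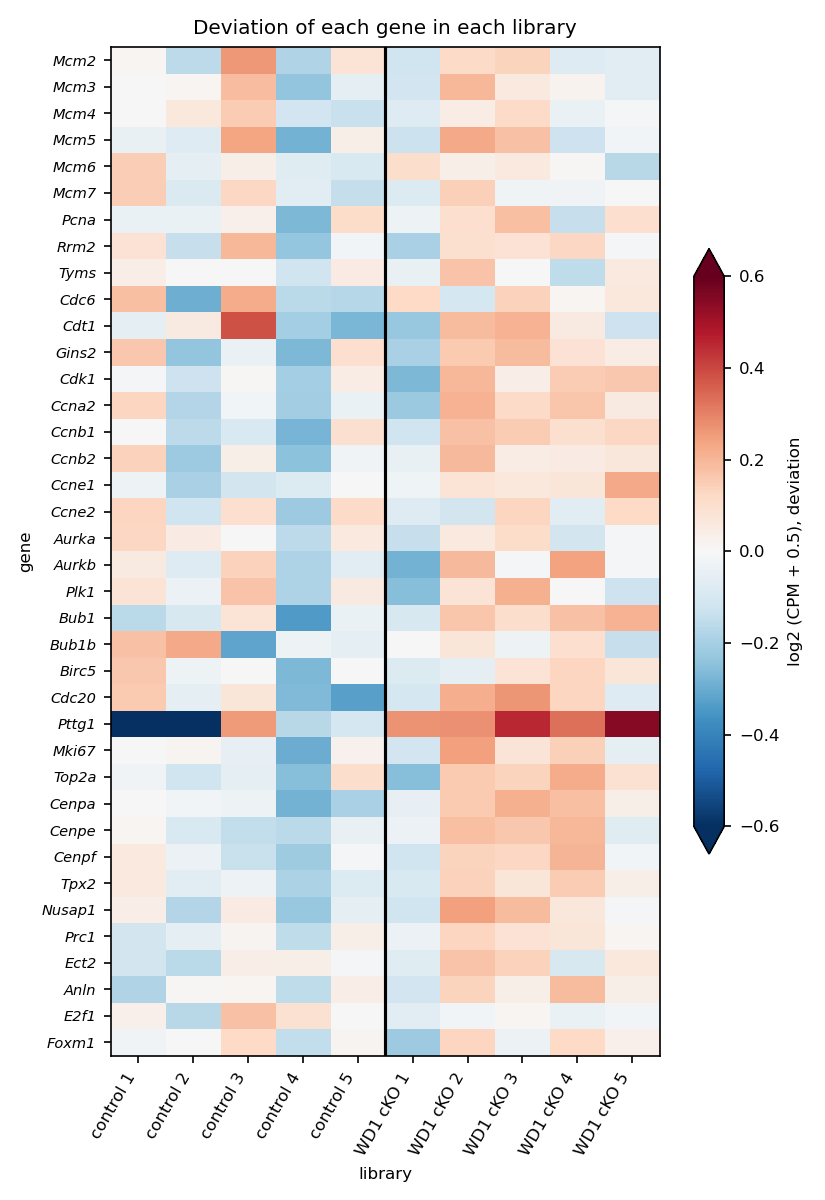
Deviation of each of the 38 genes (rows) in each library (columns) from the mean of both group means, as log2 (CPM + 0.5). Control 4 and WD1 cKO replicate 1 are low across most rows, WD1 cKO replicates 2 to 4 are high for most mitotic genes, and Pttg1 is lowest in controls 1 and 2.

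Other genes of the cell cycle, in lists by function, were compared in the same fit. None of the 109 matched to a gene had an adjusted p under 0.05, 8 had an unadjusted p under 0.05 and none had one under 0.005, beside 4.5% and 79 of the 17490 genes tested. Of 37 other genes of DNA replication, 28 had a log2 fold change above 0, with a median of 0.04 and none with an unadjusted p under 0.05. Its most abundant genes by CPM, *Rrm1*, a ribonucleotide reductase subunit, and *Rfc2*, a clamp loader subunit, differed by 0.05 and -0.01. Of 49 other genes of mitosis, 44 were above 0, with a median of 0.12, and 4 had an unadjusted p under 0.05, all higher in *WD1* cKO embryos: *Kif23* (0.15), *Spc25* (0.23), *Ttk* (0.28) and *Cdca2* (0.20). Over all genes tested, 2.12% were higher with such a p. The 4 genes were named after their values were seen. *Ncapd2*, a condensin subunit, differed by 0.01 ± 0.04 (SE).

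*Hjurp*, the chaperone that deposits Cenpa at centromeres and the most abundant gene of that list by CPM, fell into separate levels in both groups. It was at 82.0, 40.4, 85.2, 77.4 and 84.5 CPM in control replicates 1 to 5 and at 35.3, 88.8, 40.1, 42.8 and 85.0 CPM in *WD1* cKO replicates 1 to 5. Control 2 and *WD1* cKO replicates 1, 3 and 4 were low, no library lay between 42.8 and 77.4 CPM, and the genotypes overlapped (log2 fold change -0.33 ± 0.28, SE, and -0.53 to -0.20 with a library left out; unadjusted p = 0.258). *Cenpa* itself did not follow these levels, being high in *WD1* cKO replicates 3 and 4.

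The 8 cyclins, kinases and E2F factors of G1 were all above 0, beside 50.1% of all genes tested, with a median log2 fold change of 0.05. Dach1 is known to repress *Ccnd1* in other cell types, a link that was not tested here. *Ccnd1* encodes cyclin D1, which couples growth factor signals to Cdk4 and Cdk6. It was at 64.9, 56.1, 76.0, 64.3 and 81.0 CPM in control replicates 1 to 5 and at 63.6, 101.4, 87.4, 87.5 and 86.3 CPM in *WD1* cKO replicates 1 to 5. *WD1* cKO replicates 2 to 5 were above all controls, and replicate 1 was among the lowest controls (log2 fold change 0.32 ± 0.12, SE; unadjusted p = 0.0195, edgeR adjusted p = 1.00). *Cdk4*, the most abundant of the list, differed by 0.04 ± 0.05 (SE).

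Of the 15 inhibitors of the cycle that were matched, 8 were above 0 and 7 below, with a median log2 fold change of 0.00. *Ccng1* (0.08) and *Cdkn1a* (-0.12), both p53 targets and the most abundant of the list by CPM, had unadjusted p-values of 0.0264 and 0.00527, and *Rb1* (0.15), which encodes the retinoblastoma protein, had 0.00981. The *Rb1* groups barely separated, with a highest control value of 66.99 and a lowest *WD1* cKO value of 67.0 CPM. Such separation was found for 1 of the 109 other cell cycle genes and for 0.492% of all genes tested. *Rb1* and *Cdca2* lie on chromosome 14, as does *Dach1*. Linked sequence cannot be told apart from the genotype there either. *Cdkn1c*, which encodes the inhibitor p57, was at 77.3, 71.9, 91.6, 68.9 and 58.5 CPM in control replicates 1 to 5 and at 70.8, 78.3, 100.8, 68.9 and 65.2 CPM in *WD1* cKO replicates 1 to 5. Replicate 3 was highest in both groups, and the groups overlapped (0.06 ± 0.13, SE).

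Outside all lists, the genes that followed the mean of the 38 most closely over the 10 libraries were *Sox18* (Pearson correlation 0.95), *Sostdc1* (0.94), *Tor2a* (0.93), *Sash1* (0.93), *Trim65* (0.93), *Eva1b* (0.92), *Ticrr* (0.91), *Gm13889* (0.91), *Cmtm5* (0.91) and *Tmem123* (0.90). *Ticrr* is a gene of replication initiation and *Sox18* an endothelial transcription factor. The median correlation of all genes tested was -0.01, and the 10 genes were picked as the highest among those with a mean of at least 5 CPM.

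Since the mitotic genes varied together, their promoters were read in the RefSeq table for GRCm38.p6, which covers 250 bases before to 50 after the start of each gene and held 31 of the 38 genes. *Mcm4*, *Gins2*, *Ccna2*, *Ccne2*, *Aurkb*, *Tpx2* and *Foxm1* were the others. The motifs searched, on both strands, were TTTGAA, the cell cycle homology region of late genes, CCAAT, the box bound by NF-Y, and the E2F words TTTGGCGC, TTTCCCGC, TTTGCCGC and TTTCGCGC. TTTGAA was in 13 of 19 genes of G2 and mitosis, in 1 of 12 S-phase genes, *Mcm2*, and in 20.2% of the 27025 genes of the table. CCAAT was in 15 of the 19 and 7 of the 12, beside 41.1% of all genes, and both TTTGAA and CCAAT were in the same promoter for 12 of the 19 and 1 of the 12, beside 7.97% of all genes. An E2F word was in 6 of the 12 S-phase genes, *Mcm3*, *Mcm5*, *Mcm6*, *Mcm7*, *Cdc6* and *Cdt1*, and in 1 of the 19, *Cdk1*, beside 2.6% of all genes. Counted over the 32851 promoters of the table, the shares were 17.9% for TTTGAA, 37.4% for CCAAT and 2.26% for the E2F words.

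**Figure D5:**
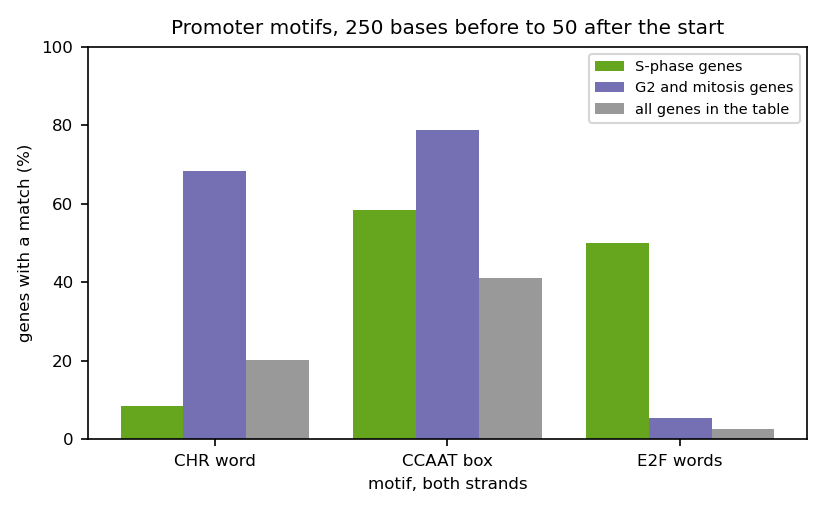
Share of genes (%, vertical axis from 0) with a match to TTTGAA (the CHR word), CCAAT or an E2F word in the promoter, for 12 S-phase genes, 19 genes of G2 and mitosis and all 27025 genes of the table. TTTGAA is most frequent in the mitotic genes and the E2F words in the S-phase genes.

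Promoters of 4 mitotic genes, 2 helicase genes and *Pttg1* are shown from 150 bases before to 30 after the start, each read 5′ to 3′ along its gene, with matches to any of the motifs in capitals, on either strand. *Ccnb2* (chr9:70421525-70421704 on the minus strand), *Cdk1* (chr10:69352883-69353062 on the minus strand), *Top2a* (chr11:99024160-99024339 on the minus strand) and *Cenpa* (chr5:30666736-30666915 on the plus strand) carry CCAAT boxes ahead of a TTTGAA near the start. *Mcm3* (chr1:20820283-20820462 on the minus strand) and *Mcm6* (chr1:128359676-128359855 on the minus strand) carry CCAAT boxes and E2F words, of which 2 overlap in *Mcm6*. *Pttg1* (chr11:43425952-43426131 on the minus strand) is shown because its levels departed from those of the other genes.
Ccnb2: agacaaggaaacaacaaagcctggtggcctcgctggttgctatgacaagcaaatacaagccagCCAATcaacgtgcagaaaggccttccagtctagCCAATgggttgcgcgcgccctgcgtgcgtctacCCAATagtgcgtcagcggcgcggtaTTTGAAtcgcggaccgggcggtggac
Cdk1: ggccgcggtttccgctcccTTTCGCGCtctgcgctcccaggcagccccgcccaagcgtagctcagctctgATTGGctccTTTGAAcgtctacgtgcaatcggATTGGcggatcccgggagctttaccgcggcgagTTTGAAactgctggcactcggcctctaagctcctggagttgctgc
Top2a: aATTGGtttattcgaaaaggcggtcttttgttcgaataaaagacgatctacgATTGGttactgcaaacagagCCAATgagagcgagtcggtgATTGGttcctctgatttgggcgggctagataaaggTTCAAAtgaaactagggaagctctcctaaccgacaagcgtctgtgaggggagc
Cenpa: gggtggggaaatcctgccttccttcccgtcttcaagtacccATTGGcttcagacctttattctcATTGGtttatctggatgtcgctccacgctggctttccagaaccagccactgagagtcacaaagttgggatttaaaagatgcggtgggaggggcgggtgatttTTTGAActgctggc
Mcm3: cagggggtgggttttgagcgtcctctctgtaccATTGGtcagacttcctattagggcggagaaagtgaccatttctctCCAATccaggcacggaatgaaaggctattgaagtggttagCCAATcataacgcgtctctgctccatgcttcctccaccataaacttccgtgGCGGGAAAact
Mcm6: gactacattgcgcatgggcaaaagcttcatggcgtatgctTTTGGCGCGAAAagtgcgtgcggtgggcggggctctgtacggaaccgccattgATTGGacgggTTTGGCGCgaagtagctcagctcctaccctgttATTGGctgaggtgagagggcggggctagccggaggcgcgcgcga
Pttg1: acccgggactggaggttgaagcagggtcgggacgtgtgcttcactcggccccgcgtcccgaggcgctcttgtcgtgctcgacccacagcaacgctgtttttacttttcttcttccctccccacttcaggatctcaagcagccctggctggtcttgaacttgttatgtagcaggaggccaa

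In *Ccnb2*, CCAAT begins 87, 54 and 21 bases before the start, and *Cdk1* holds TTTGAA at 71 and 15 bases before it. *Pttg1* has no match to these letters in the window, which says nothing of the factors that act on it. Of the genes with an unadjusted p under 0.05, TTTGAA was in *Cenpa* but not in *Bub1*, *Cenpe*, *Ccne1* or *Pttg1*.

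The cell types that could carry these transcripts were read from marker lists. The 10 sensory neuron markers summed to 7195, 7148, 6770, 7052 and 6996 CPM in control replicates 1 to 5 and to 6895, 7038, 6753, 6796 and 6920 CPM in *WD1* cKO replicates 1 to 5. *Prph* was the most abundant of them, and 9 of the 10 had a log2 fold change below 0, with a median of -0.06. The 10 markers of Schwann cells and satellite glia summed to 1140, 1079, 1185, 1256 and 1227 CPM and to 1051, 1251, 1142, 1363 and 1302 CPM in the same order, with *Mbp* the most abundant. Of the glial markers, 8 of 10 were above 0 (median 0.08). In *WD1* cKO embryos the glial sum was lowest in replicate 1 and highest in replicate 4, with mitotic sums of 510.6 and 620.5 CPM. Among the controls it was lowest in replicate 2 and highest in replicate 4, with mitotic sums of 528.7 and 479.1 CPM. The part of glial content was not tested.

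All 7 connective tissue markers were above 0 (median 0.11), with *Col3a1* the most abundant, and 2 had an unadjusted p under 0.05, *Postn* (0.19) and *Lum* (0.22). They summed to 4978, 4796, 6273, 4559 and 4824 CPM in control replicates 1 to 5 and to 5276, 5824, 5922, 5416 and 5135 CPM in *WD1* cKO replicates 1 to 5. Control 3 was the highest and control 4 the lowest. The 8 endothelial and mural markers, led by *Cdh5*, summed to 401.5, 385.1, 439.9, 405.9 and 419.2 CPM and to 411.7, 438.4, 439.5, 399.2 and 392.9 CPM, and the groups overlapped. The 7 macrophage markers, led by *Mrc1*, summed to 82.2, 88.1, 93.1, 100.1 and 95.9 CPM and to 82.8, 80.0, 96.3, 92.8 and 94.1 CPM, with 5 of 7 below 0.

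Markers of blood and adjoining tissue differed widely between libraries. The 8 erythroid genes, led by *Hbb-bs*, summed to 2505, 1653, 1084, 155.8 and 184.1 CPM in control replicates 1 to 5 and to 1149, 722.5, 513.0, 243.7 and 190.4 CPM in *WD1* cKO replicates 1 to 5. Replicates 1 to 3 were above replicates 4 and 5 in both groups, and 6 of the 7 erythroid genes tested had a log2 fold change below 0 (median -0.93), none with an unadjusted p under 0.05. Skeletal muscle markers, led by *Acta1*, summed to 122.3, 54.0, 110.5, 24.8 and 200 CPM and to 55.1, 57.0, 108.5, 69.2 and 50.4 CPM, with *Myod1* and *Myog* at 0 in some libraries. Of the 7 muscle markers tested, 6 were below 0 (median -0.53), none with an unadjusted p under 0.05. In each of these 6, the highest value of the 10 libraries was in control replicate 5. *Myh3* was at 34.2 CPM there, from 1.47 to 21.95 CPM in the other controls and from 6.84 to 22.65 CPM in *WD1* cKO embryos. The direction of the muscle markers thus rests in part on that library, and fold changes without it are not given. The 5 spinal cord markers, led by *Slc6a5*, summed to 15.3 CPM in control replicate 3 and to between 0.0736 and 1.32 CPM in the 9 other libraries, where each of *Pax2*, *Slc6a5*, *Olig1*, *Olig2* and *Slc32a1* was at 0 in at least 1 library. Without control replicate 3, the count of the 38 genes with an unadjusted p under 0.05 was 7 and that with an adjusted p under 0.05 remained 0.

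Within the groups, marker lists followed the cell cycle genes to different degrees. The median Pearson correlation of a list's genes with the mean of the 38, on log2 CPM centred on group means over the 10 libraries, was 0.66 for skeletal muscle, 0.50 for connective tissue, 0.32 for endothelial and mural cells, 0.25 for Schwann cells and satellite glia, 0.23 for erythroid genes, 0.12 for macrophages and -0.02 for sensory neurons. For the other genes of mitosis it was 0.64. Muscle markers thus varied with the 38 genes within groups. Between genotypes the 38 genes were mostly above 0 and the muscle markers mostly below 0, the latter resting in part on control replicate 5. The part of these cell types in the differences of the cell cycle genes was not tested.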

How the data were processed

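Counts per gene of the 10 libraries were deposited by the authors without normalization. The authors prepared stranded mRNA libraries, aligned reads with STAR 2.7.8a to GRCm39 and counted them with featureCounts 2.0.1. The strand setting and the handling of reads with several matches are not given in the sources used here, so genes with near-identical copies or antisense partners are uncertain.

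Gene symbols, chromosomes and exon lengths were taken from the GENCODE M21 annotation of GRCm38, which matched 52081 of 55414 identifiers. *Lin54*, an inhibitor list gene, was not matched. The analysis used edgeR 4.0.16 under R 4.3.3. A gene was kept where 5 or more libraries had 10 or more counts (17490 genes), and the groups were compared after TMM scaling by the quasi-likelihood test without covariates, with Benjamini-Hochberg adjustment over all genes tested. SEs were derived from the fold change and its F statistic. Alternatives were DESeq2 1.42.0 size factors, the DESeq2 Wald test, no filter on low counts, the replicate number as a block, each library left out, and a promoter window of 100 bases before the start. Scripts were tested on simulated data, in which the edgeR test called 32 of 50 genes changed by a log2 of 0.5 and 40 of 50 changed by 1. No library pair of a group was alike within sampling noise (a chi-square of 4.35 to 15.0 per degree of freedom), so none was taken as a second deposit of another. Values of CPM and log2 CPM were computed from the deposited counts. Correlations used log2 CPM with a prior count of 2, and the deviations a pseudocount of 0.5 CPM.

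The members and lists were chosen with earlier results of these data known. Values in every library are given for the most abundant of the 38 genes per length in each role and for those with an unadjusted p under 0.05. Of the other cell cycle lists, *Ccnd1*, *Cdkn1c*, genes with an unadjusted p under 0.005 and the 2 with the highest mean CPM in each list are named, and of marker lists the most abundant gene and markers at 0. *Hjurp* levels by library, *H2afv* and the other genes with an unadjusted p under 0.05 were singled out after their values were seen.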

Additional observations from a re-analysis of the deposited data

Results flagged for a closer look

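In 88 groups of 5 libraries, 4 held a library whose distance to its nearest neighbour was above Dixon's 95% limit of 0.71 of the group's range. Chance flags about 1 in 20 groups, or 4.4 here. *Mki67* was at 77.0 CPM in control replicate 4 and from 91.6 to 96.6 CPM in the other controls. *Ccnb1* was at 5.35 CPM in *WD1* cKO replicate 1 while the remaining *WD1* cKO libraries lay between 6.30 and 6.69 CPM. *Hjurp* was at 40.4 CPM in control replicate 2 and from 77.4 to 85.2 CPM in the other controls. *Rb1* was at 79.1 CPM in *WD1* cKO replicate 1 while the others of its group lay between 67.0 and 69.5 CPM. The cause of these values was not tested.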

How the results depend on the processing

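No alternative gave any of the 38 genes or of the other cell cycle genes an adjusted p under 0.05. Over all genes tested, the count with an adjusted p under 0.05 was 7, 19 with the DESeq2 Wald test and from 3 to 6 with a library left out. The count of the 38 with an unadjusted p under 0.05 was 5 and ranged from 3 to 14 with a library left out; the cause was not tested. Their median log2 fold change ranged from 0.06 to 0.12.

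Of the 38 genes, 14 changed sign with some library left out. Their log2 fold changes then ranged from -0.055 to 0.061 in *Mcm2*, -0.016 to 0.095 in *Mcm3*, -0.019 to 0.054 in *Mcm4*, -0.0065 to 0.13 in *Mcm5*, -0.0083 to 0.058 in *Mcm6*, -0.031 to 0.047 in *Mcm7*, -0.014 to 0.098 in *Rrm2*, -0.024 to 0.058 in *Tyms*, -0.028 to 0.16 in *Cdt1*, -0.057 to 0.032 in *Ccne2*, -0.098 to 0.028 in *Plk1*, -0.081 to 0.052 in *Bub1b*, -0.0036 to 0.11 in *Birc5* and -0.020 to 0.067 in *Foxm1*. The same held for *Rfc2* (-0.037 to 0.017), *Ncapd2* (-0.011 to 0.032) and *Cdkn1c* (-0.057 to 0.15). Without the filter on low counts, *Mcm2* (0.0012), *Ccne2* (0.0091), *Bub1b* (0.0013) and *Rfc2* (0.0050) changed sign, as did *Ccne2* with the DESeq2 Wald test (0.00020). The cause was not tested. Other log2 fold changes kept their sign with a library left out but moved by over 1.5 times: *Pcna* (0.03 to 0.13), *Cdc6* (0.03 to 0.17), *Gins2* (0.07 to 0.18), *Cdk1* (0.09 to 0.20), *Ccnb2* (0.08 to 0.18), *Aurka* (-0.08 to -0.00093), *Aurkb* (0.01 to 0.14), *Mki67* (0.07 to 0.16), *Ect2* (0.05 to 0.12), *E2f1* (-0.10 to -0.02), *Rrm1* (0.03 to 0.08), *Cdk4* (0.01 to 0.07) and *Hjurp* (-0.53 to -0.20).

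Of the 5 same-numbered pairs of libraries, 4 correlated between 0.32 and 0.39 and replicate 2 at 0.04. Pairing was accepted only where every pair was above 0.1, so the main fit has no block, although 6 of 10 libraries correlated best with their own number, which is a hint of shared variation. With the replicate block, *Dach1* had a log2 fold change of -0.92, 8 genes had an adjusted p under 0.05, and 0 of the 38 and 0 other cell cycle genes did. In the blocked fit 5 of the 38 had an unadjusted p under 0.05, beside 7.1% of all genes tested, their median was 0.09 and *Bub1b* changed sign (0.00087).

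With the shorter promoter window, E2F words were in the promoters of 4 of the 31 genes held by the table in place of 7, fewer bases being searched. Depth limits *Cdc6* most, with counts from 66 to 134 per library.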
